A study of Mus musculus with 6 samples.

Results

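The heat shock genes described here are 10 mouse genes of the cytosolic and mitochondrial chaperone system: Hspa1a, Hspa1b, Hspa8, Hspa4l, Hsp90aa1, Hsp90ab1, Dnajb1, Hsph1, Hspd1 and Unc45b. They were chosen by name from 54356 genes with at least 1 transcript in the data, and all 10 passed the filter on low counts that left 16048 genes to test. RNA with poly(A) tails was sequenced from whole hearts of C57BL/6 mouse embryos at embryonic day 9.5, with 3 libraries of Flnc global knockout hearts (FlncgKO) and 3 of littermate control hearts. Flnc encodes filamin C, an actin cross-linking protein of heart and skeletal muscle. In FlncgKO embryos a floxed part of Flnc, exons 9 to 13, is deleted. The study derived this global knockout from a cross of floxed Flnc mice and Sox2-Cre mice, so the deletion is not limited to cardiomyocytes. The control embryos are described as littermates and their Flnc and Cre alleles are not given in the sources used here, nor is the number of hearts behind a library. The methods name hearts or isolated ventricles while the labels name whole heart. Nothing states that the 3 libraries of a group came from separate litters, so p-values measure the spread between these libraries.

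Heat shock proteins are chaperones that bind unfolded or partly folded proteins. HSP70 proteins work in cycles of ATP binding and hydrolysis, in which J proteins deliver the client and start hydrolysis and exchange factors of the HSP110 kind release the nucleotide, and many clients then pass to HSP90 with its co-chaperones. A part of this set is made all the time and a part is switched on by heat shock factor 1 (Hsf1) when proteins misfold, through heat shock elements, which are repeats of a GAA unit in alternating directions. In striated muscle the system also serves the sarcomere, since the myosin head needs Unc45b and HSP90 to fold and damaged filamins are cleared by HSP70 with Bag3.

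The libraries held between 19208859 and 23123255 estimated counts in FlncgKO hearts and between 20451664 and 21540394 in control hearts. Flnc itself had 127, 111 and 240.0 CPM (estimated counts scaled to the library's size, after TMM scaling) in FlncgKO libraries, against 844, 623 and 746 CPM in control libraries, a log2 fold change of -2.21 ± 0.35 (SE) with an edgeR adjusted p of 0.0656 and a DESeq2 adjusted p of 1.11e-06. Without FlncgKO library 3 the edgeR adjusted p of Flnc was 0.00110. In that setting edgeR called 989 genes higher and 283 lower over the whole table, in place of 170 and 40 with all libraries. Smaller adjusted p-values there are thus not particular to single genes. All 12 cardiomyocyte markers were detected, and their summed level was 33660 to 39523 CPM in FlncgKO libraries and 36834 to 41636 CPM in control libraries, so the groups overlapped. The 11 platelet and megakaryocyte markers summed to 114 to 715 CPM in FlncgKO libraries and 21.5 to 31.02 CPM in control libraries, without overlap. Globin transcripts took 0.715% to 1.24% of counts in FlncgKO libraries and 0.297% to 0.906% in control libraries, with overlap. The 4 Y-linked genes read here summed to 80.7, 3.88 and 4.28 CPM in FlncgKO libraries 1, 2 and 3 and to 117, 139.7 and 122 CPM in control libraries 1, 2 and 3. The sex of the embryos is not given in the sources used here. The Y-linked level was high in all 3 control libraries and low in FlncgKO libraries 2 and 3. It is therefore partly confounded with the group. In every fit below that uses it as a covariate, the parts of genotype and of the Y-linked level cannot be told apart. In such bulk libraries, fewer cells of a type and less RNA per cell cannot be told apart.

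The stretch before the start site is shown for the members with a match to a heat shock element there, since it is the sequence through which the pathway is read. Gene positions are those of GENCODE M21 on GRCm38. Hspa1a (chr17:34969190-34972156, minus strand) and Hspa1b (chr17:34956436-34959238, minus strand) are neighbouring genes of 1 exon each. The 250 bases before their starts (RefSeq, GRCm38.p6, chr17:34972157-34972406 and chr17:34959239-34959488, both on the minus strand and written 5′ to 3′) follow, with the 2-unit element in capitals.
Hspa1a: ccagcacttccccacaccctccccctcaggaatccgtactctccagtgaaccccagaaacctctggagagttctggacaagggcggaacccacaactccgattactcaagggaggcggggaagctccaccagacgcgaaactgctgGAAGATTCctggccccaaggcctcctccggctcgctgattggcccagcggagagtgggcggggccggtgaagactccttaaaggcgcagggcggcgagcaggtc
Hspa1b: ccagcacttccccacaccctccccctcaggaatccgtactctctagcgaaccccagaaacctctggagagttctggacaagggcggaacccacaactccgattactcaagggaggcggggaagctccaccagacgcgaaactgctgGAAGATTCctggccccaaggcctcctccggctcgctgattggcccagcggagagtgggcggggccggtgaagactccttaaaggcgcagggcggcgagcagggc
The pair of stretches differed at 3 of 250 bases, at positions 207, 204 and 2 before the start, and both carried the same match, GAAGATTC, 104 to 97 bases before the start. For Hsph1 and Hspd1, 30 bases around the match are given, at chr5:149636351-149636380 and chr1:55088053-55088082, both on the minus strand, again with the matched units in capitals.
Hsph1: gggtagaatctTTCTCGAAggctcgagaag
Hspd1: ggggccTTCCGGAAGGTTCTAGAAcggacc
The Hspd1 stretch is shown because its matches overlap in 1 run of alternating units, 144 to 127 bases before the start of 1 of its 2 RefSeq windows. Both 30-base stretches lie upstream of the main transcript in the GENCODE annotation. The Hspd1 stretch lies inside the first exon of a minor transcript, Hspd1-202, and the Hsph1 stretch overlaps in part with that of another, Hsph1-206.

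Elements of 2 units were searched as GAANNTTC or TTCNNGAA and those of 3 units as GAANNTTCNNGAA or TTCNNGAANNTTC, both strands being covered because each form or pair of forms is its own reverse complement. Of the members, 7 had a RefSeq window. Hspa8, Hsp90aa1 and Hsp90ab1 had none. A 2-unit match stood before 4 of the 7 genes, Hspa1a, Hspa1b, Hsph1 and Hspd1, against 12.8% of 32851 windows and 14.6% of 27025 genes with a window. A 3-unit match stood before 1 of the 7, Hspd1, against 0.466% of windows and 0.514% of genes. Hspa4l, Dnajb1 and Unc45b had neither form in these 250 bases.

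Across the 10 genes, none passed the threshold of the whole-table test (edgeR quasi-likelihood, Benjamini-Hochberg adjusted p under 0.05) in either direction. The count of 0 higher and 0 lower stood beside 1.06% of all 16048 genes called higher and 0.249% called lower. At an unadjusted p under 0.05, 1 member was higher (Hspa1a, against 13.3% of all genes) and 3 were lower (Hspa8, Hspd1 and Unc45b, against 8.84% of all genes). DESeq2, the tool named in the study's methods, called 1 member higher in FlncgKO hearts (Hspa1a, against 6.42% of all genes called higher) and 2 lower (Hspd1 and Unc45b, against 2.38% called lower). In no member were all 3 FlncgKO libraries above all 3 control libraries, which held for 15.7% of genes, and in 3 members (Hspa8, Hspd1 and Unc45b) all 3 were below, which held for 14.1% of genes. Of the log2 fold changes, 5 were positive and 5 negative, with a median of -0.04, beside a median of 0.01 and 51.6% positive over all genes tested.

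**Figure D1:**
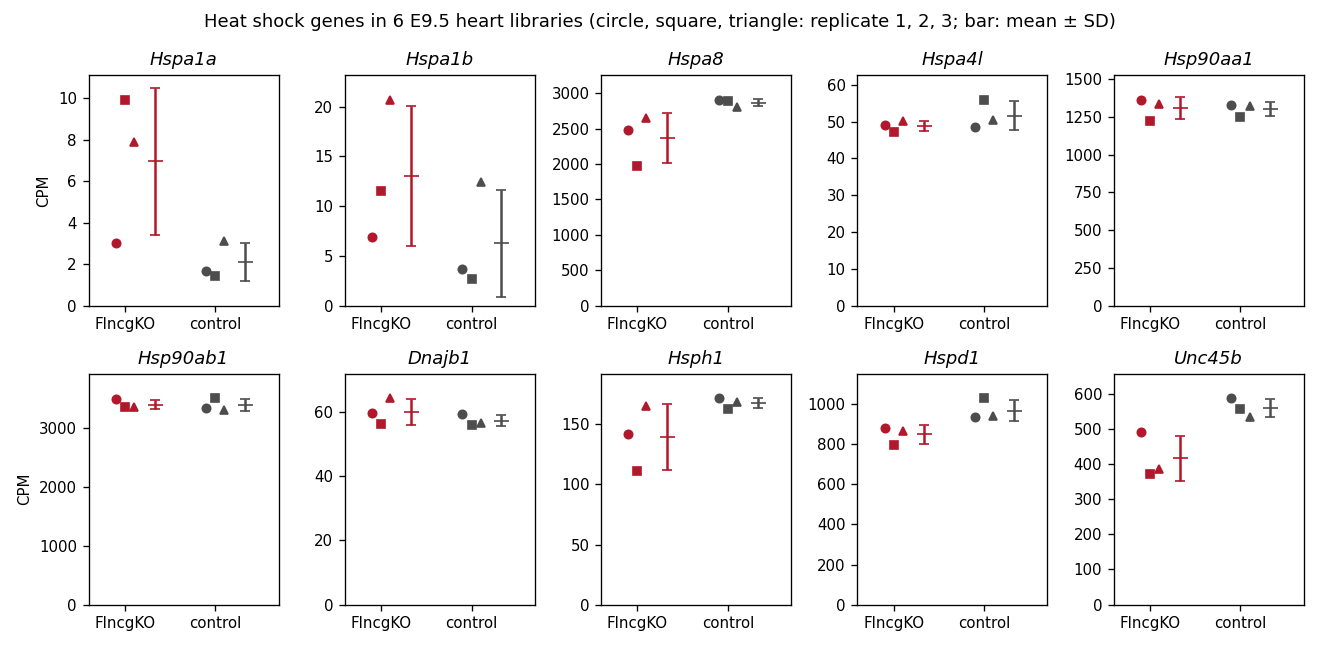
Level of each of the 10 heat shock genes in CPM (y axis, from 0, its own scale in each panel) in the 3 FlncgKO and 3 control libraries, with replicates 1, 2 and 3 as circle, square and triangle and the mean ± SD beside them. Hspa1a and Hspa1b stand under 21 CPM with wide spreads, and Hspa8, Hspd1 and Unc45b have all FlncgKO points below all control points.

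On a per-length scale (TPM, the deposited unit that divides counts by transcript length and library size) the members spanned 0.748 to 2169 TPM. Hspa8 and Hsp90ab1 led, with means of 1686 ± 217 and 1815 ± 46.7 TPM in FlncgKO hearts, against 1997 ± 151 and 1765 ± 58.1 TPM in control hearts (SD, n = 3 each). Hspd1 and Hsp90aa1 came next, at 670.5 ± 33.0 and 706 ± 29.05 TPM in FlncgKO hearts, against 756 ± 40.2 and 690.2 ± 49.3 TPM in control hearts. Hspd1 and Hsp90aa1 overlapped in both groups, while in control libraries the lowest Hspa8 value, 1888 TPM, lay above the highest Hsp90ab1 value, 1806 TPM. The ratio of Hsp90ab1 to Hspa8 was 1.04, 1.27 and 0.956 in FlncgKO libraries and 0.833, 0.926 and 0.899 in control libraries, so Hsp90ab1 stood above Hspa8 in FlncgKO libraries 1 and 2 alone. Unc45b followed at 182 ± 28.4 TPM in FlncgKO hearts and 244 ± 18.9 TPM in control hearts. Below it stood Hsph1, Dnajb1 and Hspa4l, between 14.8 and 84.3 TPM in all 6 libraries. Hspa1b and Hspa1a were lowest, at 3.82 to 11.1 TPM and 1.52 to 5.11 TPM in FlncgKO libraries, against 1.57 to 7.15 TPM and 0.748 to 1.597 TPM in control libraries.

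Hspa1a and Hspa1b encode the stress-inducible HSP70. Hspa1a had 3.04, 9.93 and 7.87 CPM in FlncgKO libraries 1, 2 and 3, against 1.69, 1.45 and 3.14 CPM in control libraries 1, 2 and 3. FlncgKO libraries 2 and 3 stood above every control library, while FlncgKO library 1 lay just inside the control range. These levels rest on 68, 225 and 151 estimated counts in FlncgKO libraries and 37, 30 and 65 in control libraries. The log2 fold change was 1.73 ± 0.51 (SE; 95% interval 0.49 to 2.97), or 3.31-fold, with an adjusted p of 0.126 by edgeR and 0.00583 by DESeq2. Without control library 1, control library 2 or FlncgKO library 2, the DESeq2 adjusted p of Hspa1a was 0.128, 0.123 or 0.208. With the Y-linked level as a covariate, which is partly confounded with the group, the edgeR log2 fold change was 0.29, with an adjusted p of 0.927. FlncgKO library 1, with the lowest Hspa1a level of the 3, was also the FlncgKO library with 80.7 CPM of Y-linked genes, and the part of this in the result was not tested further.

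Hspa1b had 6.89, 11.5 and 20.7 CPM in FlncgKO libraries 1, 2 and 3, against 3.66, 2.65 and 12.5 CPM in control libraries 1, 2 and 3. Control library 3 stood apart from the other 2 control libraries and above 2 of the 3 FlncgKO libraries. The log2 fold change was 1.06 ± 0.76 (SE; 95% interval -0.90 to 3.01), with adjusted p-values of 0.480 by edgeR and 0.522 by DESeq2. Without control library 3 the log2 fold change of Hspa1b was 2.04, with adjusted p-values of 0.149 by edgeR and 0.000693 by DESeq2. The coding sequences of the pair were 99.5% identical over 1926 aligned bases, and 63.8% of the 31-base stretches of the Hspa1a transcript also occurred in Hspa1b, so the split of reads between them was uncertain. Their neighbour Hspa1l, an HSP70 gene known for its expression in testis, shared 12.1% of the stretches of Hspa1a and had 1.52, 1.94 and 1.88 CPM in FlncgKO libraries and 1.46, 1.98 and 1.84 CPM in control libraries.

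Summed as 1 feature, Hspa1a and Hspa1b had 9.93, 21.4 and 28.6 CPM in FlncgKO libraries 1, 2 and 3, against 5.35, 4.10 and 15.6 CPM in control libraries 1, 2 and 3. The groups overlapped, because control library 3 lay above FlncgKO library 1. The log2 fold change of the sum was 1.26 ± 0.68 (SE; 95% interval -0.52 to 3.03), with an edgeR adjusted p of 0.359, and the two-sided exact permutation test on log2 CPM gave p = 0.2, where 0.1 is the smallest p that 3 against 3 libraries allow. Of 6 surface ectoderm and epithelial markers, 5 were tested (all but Trp63), and all 5 had a positive log2 fold change. Of these, 1, Dlx3, passed the edgeR threshold, beside 1.06% of all genes called higher. Their summed level was 246, 323 and 509 CPM in FlncgKO libraries 1, 2 and 3, against 183, 128 and 278 CPM in control libraries 1, 2 and 3. Krt8 made up most of it, at 164, 203 and 316 CPM in FlncgKO libraries and 124, 86.8 and 179 CPM in control libraries, followed by Krt18. Krt8 and Krt18, and with them the sum that they dominate, put the 6 libraries in the same order as the HSP70 sum. Cdh1, Epcam and Dlx3, at most 13.1 CPM in any library, did not. The summed cardiomyocyte, endothelial, platelet, erythroid, leukocyte, epicardial and liver bud markers gave other orders. The match was seen after the levels were known and only describes them. Control library 3 was also the highest control library in the 11 erythroid markers, of which none passed the edgeR threshold, at 8696, 7577 and 12922 CPM in FlncgKO libraries, against 3197, 3106 and 9314 CPM in control libraries. The part of these cells in the HSP70 levels was not tested. Per length, the inducible pair came to 0.301%, 0.817% and 0.809% of the level of Hspa8 in FlncgKO libraries, against 0.134%, 0.120% and 0.463% in control libraries. In every library the inducible HSP70 transcripts were under 1% of the constitutive one.

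Hspa8 (chr9:40800984-40810087, plus strand) encodes HSC70, the constitutive cytosolic HSP70. It had 2474, 1978 and 2655 CPM in FlncgKO libraries 1, 2 and 3, against 2909, 2883 and 2809 CPM in control libraries 1, 2 and 3. The groups did not overlap, and the spread was wider among FlncgKO libraries (SD 351 CPM) than among control libraries (SD 52.1 CPM), with FlncgKO library 2 lowest. The log2 fold change was -0.28 ± 0.10 (SE; 95% interval -0.52 to -0.03), with adjusted p-values of 0.181 by edgeR and 0.0580 by DESeq2, neither past the threshold. Without FlncgKO library 2 the log2 fold change was -0.16 by edgeR with an adjusted p of 0.266. The DESeq2 adjusted p of Hspa8 was 0.0109 without FlncgKO library 2 and 0.00162 without FlncgKO library 3. By edgeR the adjusted p without FlncgKO library 3 was 0.0636. Processed pseudogenes hold much of its sequence, 77.2% of the 31-base stretches of its main transcript being found in other genes, but the 5 copies that shared most of them received between 0 and 5 estimated counts in any library.

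Hspa4l and Hsph1 belong to the HSP110 family, exchange factors of HSP70, and Dnajb1 is the J protein that pairs with it in the cytosol and is itself heat inducible. Hsph1 (chr5:149614287-149636376, minus strand) had 142, 111 and 165 CPM in FlncgKO libraries 1, 2 and 3, against 172, 163 and 169 CPM in control libraries 1, 2 and 3. Only FlncgKO library 3 reached the control range. Its log2 fold change was -0.27 ± 0.14 (SE; 95% interval -0.60 to 0.06), with adjusted p-values of 0.308 by edgeR and 0.200 by DESeq2. Without FlncgKO library 3 the DESeq2 adjusted p was 0.00366. Without FlncgKO library 2 the log2 fold change of Hsph1 was -0.13, with adjusted p-values of 0.445 by edgeR and 0.523 by DESeq2. In the deposited TPM the groups did not overlap, at 59.3 to 74.8 in FlncgKO libraries and 81.6 to 84.3 in control libraries. Across Hspa8 and Hsph1 the libraries kept the same order within the FlncgKO group, library 3 highest and library 2 lowest.

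Hspa4l (chr3:40744495-40796103, plus strand) had 49.0, 47.3 and 50.1 CPM in FlncgKO libraries, against 48.4, 56.0 and 50.4 CPM in control libraries. Dnajb1 (chr8:83608193-83612653, plus strand) had 59.8, 56.3 and 64.2 CPM in FlncgKO libraries, against 59.2, 56.0 and 56.4 CPM in control libraries. In both genes the groups overlapped. The log2 fold change of Hspa4l was -0.08 (95% interval -0.24 to 0.08) and that of Dnajb1 0.07 (95% interval -0.08 to 0.22), with edgeR adjusted p-values of 0.526 and 0.559.

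Hsp90aa1 and Hsp90ab1 encode the cytosolic HSP90 alpha, which heat induces, and the constitutive HSP90 beta. Hsp90aa1 (chr12:110690605-110702728, minus strand) had 1363, 1224 and 1333 CPM in FlncgKO libraries, against 1330, 1250.3 and 1323 CPM in control libraries. Hsp90ab1 (chr17:45567775-45573271, minus strand) had 3476, 3343 and 3349 CPM in FlncgKO libraries, against 3330, 3495 and 3305 CPM in control libraries. Both pairs of groups overlapped throughout. The log2 fold changes were 0.01 (95% interval -0.13 to 0.14) for Hsp90aa1 and 0.01 (95% interval -0.12 to 0.13) for Hsp90ab1, with edgeR adjusted p-values of 0.966 and 0.965, and their sign turned negative with RLE size factors (-0.00093 and -0.0013) and with total counts only (-0.02 for each), among other settings. These are the narrowest intervals among the 10 members. Per length, Hsp90ab1 stood 2.45 to 2.72 times above Hsp90aa1 in FlncgKO libraries and 2.43 to 2.77 times above it in control libraries. The 2 coding sequences were 75.9% identical.

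Hspd1 (chr1:55077835-55088243, minus strand) encodes HSP60, the chaperonin of the mitochondrial matrix and the only mitochondrial protein among the members. It had 884, 798 and 869 CPM in FlncgKO libraries 1, 2 and 3, against 937, 1030.3 and 941 CPM in control libraries 1, 2 and 3. All 3 FlncgKO libraries lay below all 3 control libraries. The log2 fold change was -0.19 ± 0.06 (SE; 95% interval -0.33 to -0.04), with adjusted p-values of 0.137 by edgeR and 0.0409 by DESeq2. The DESeq2 adjusted p of Hspd1 was 0.0889, 0.253, 0.0803 and 0.171 without control library 1, 2, 3 and FlncgKO library 2, all above the threshold. Hspe1 encodes HSP10, the lid of the same chaperonin, and is transcribed away from Hspd1 from a shared promoter region. It had 143, 131 and 152 CPM in FlncgKO libraries, against 154, 166 and 162 CPM in control libraries, also without overlap, with a log2 fold change of -0.18 and an edgeR adjusted p of 0.176. The ratio of Hspd1 to Hspe1 in CPM was 6.00 ± 0.26 in FlncgKO hearts and 6.03 ± 0.21 in control hearts (SD, n = 3 each). Transcripts of the mitochondrial genome took 2.33%, 2.01% and 2.58% of counts in FlncgKO libraries, against 3.31%, 3.96% and 3.08% in control libraries, and their part in the level of Hspd1 was not tested.

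Unc45b (chr11:82910550-82943403, plus strand) encodes the myosin chaperone of striated muscle, which binds HSP90. It had 491, 371 and 387 CPM in FlncgKO libraries 1, 2 and 3, against 588, 558 and 535 CPM in control libraries 1, 2 and 3. The groups did not overlap. On the log2 scale the difference was -0.43 ± 0.11 (SE; 95% interval -0.68 to -0.17), or 0.743-fold, with adjusted p-values of 0.0901 by edgeR and 0.00155 by DESeq2. It had the smallest edgeR p of the 10 members, at rank 966 of the 16048 genes. The edgeR adjusted p of Unc45b was 0.0385 without FlncgKO library 1, and the DESeq2 adjusted p was 0.0730 without control library 1. With the Y-linked level as a covariate its log2 fold change was -0.14, with an edgeR adjusted p of 0.771. Set against the 12 cardiomyocyte markers, Unc45b came to 12.4, 9.63 and 11.5 CPM per 1000 CPM of markers in FlncgKO libraries, against 15.4, 13.4 and 14.5 in control libraries, again without overlap.

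**Figure D2:**
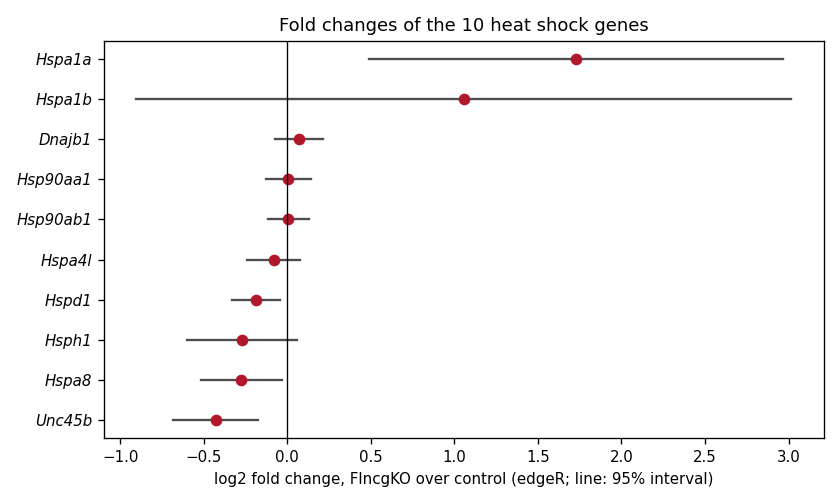
Fold changes of the 10 members, on the x axis as log2 of FlncgKO over control from the edgeR fit, each with its 95% interval. Hspa1a and Hspa1b lie on the right with wide intervals (0.49 to 2.97 and -0.90 to 3.01), the HSP90 genes lie at 0, and Unc45b, Hspa8 and Hspd1 lie on the left with intervals below 0 before adjustment over genes.

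The deposited values are per transcript, so the share of each member's TPM from its main transcript could be followed. Hspa1a and Hspa1b had 1 annotated transcript each, Hsp90ab1 had 1 above 1% of its TPM, and 7 members had at least 2. In none of the 7 did the groups separate, and every adjusted p of the two-sided exact permutation test was 1. For Hsp90aa1 the main transcript, with 11 exons, held 61.8% ± 1.51 of the TPM in FlncgKO hearts and 59.7% ± 1.94 in control hearts (SD, n = 3 each). For Unc45b the main transcript, with 20 exons, held 91.9% ± 1.09 in FlncgKO hearts and 91.4% ± 1.78 in control hearts. Another coding transcript of Unc45b, Unc45b-202, had 6.24, 8.35 and 5.14 estimated counts in FlncgKO libraries, against 44.1, 19.6 and 17.1 in control libraries. A transcript of Hsp90aa1 with a retained intron went the other way, with 64.4, 82.3 and 51.1 estimated counts in FlncgKO libraries and 32.1, 16.5 and 7.35 in control libraries. A second retained-intron transcript of Hsp90aa1 had 0, 9.71 and 11.3 estimated counts in FlncgKO libraries, against 28.9, 30.1 and 37.3 in control libraries, so the retained-intron transcripts of this gene did not share a direction. These last 3 transcripts were picked after their values were seen and carry no test. They came from 13 transcripts of members, above a limit on low counts, whose groups did not overlap in estimated counts. Those counts were not scaled to library size, and the only transcript of Hspa1a was among the 13 although its groups overlapped in CPM. The share of such transcripts over all genes was not computed.

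Other genes of the pathway, myosin genes and partners, and immediate early genes were read in 10 lists that hold no member. Among 5 tested heat shock factors and regulators, none passed the edgeR threshold. Hsf1, which drives the inducible genes, had 37.9, 35.6 and 44.5 CPM in FlncgKO libraries and 46.0, 40.7 and 43.3 CPM in control libraries, with overlap. Hsf2, a second factor of the family, had 43.5, 45.3 and 44.5 CPM in FlncgKO libraries, against 54.3, 50.2 and 49.8 CPM in control libraries, a log2 fold change of -0.21 with an edgeR adjusted p of 0.0958. Hsbp1l1, a paralogue of the Hsf1-binding protein Hsbp1, had a log2 fold change of 0.67 with an adjusted p of 0.113, at 2.10 to 4.22 CPM over the 6 libraries.

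Of the 7 other HSP70 genes none passed the edgeR threshold, with a median log2 fold change of -0.08. Hspa4, a further HSP110 gene, had 415, 369 and 393 CPM in FlncgKO libraries, against 445, 446 and 433 CPM in control libraries, without overlap, at a log2 fold change of -0.17 and an adjusted p of 0.1301. Hspa12a, a distant relative of HSP70, was at 6.04 to 9.18 CPM in FlncgKO libraries and 9.19 to 11.6 CPM in control libraries, with an adjusted p of 0.169, which was 0.0352 without FlncgKO library 3. None of the 9 exchange factors and partners of HSP70 passed either, and their median was 0.02. Bag3, which links HSP70 to the clearance of damaged filamin, had 61.7, 53.9 and 63.1 CPM in FlncgKO libraries, against 64.5, 65.2 and 67.5 CPM in control libraries, a log2 fold change of -0.14 (95% interval -0.31 to 0.02) with an adjusted p of 0.2796. Bag2, of the same family of HSP70 partners, had 90.7, 88.5 and 72.1 CPM in FlncgKO libraries, against 73.5, 70.7 and 76.9 CPM in control libraries, a log2 fold change of 0.19 with an edgeR adjusted p of 0.289, which was 0.0378 without FlncgKO library 3.

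The 14 other cytosolic J proteins, which feed clients to HSP70, had 0 edgeR calls and a median of -0.01. Their 3 DESeq2 calls were 2 higher and 1 lower, against 6.42% and 2.38% of all genes. Dnaja1, a J protein of HSC70, had 226, 190.4 and 244 CPM in FlncgKO libraries, against 272, 272 and 275 CPM in control libraries, with a log2 fold change of -0.31 and adjusted p-values of 0.103 by edgeR and 0.0141 by DESeq2. Dnajc21, a J protein of ribosome assembly, had 45.8, 46.1 and 36.2 CPM in FlncgKO libraries, against 30.2, 31.5 and 31.7 CPM in control libraries, with a log2 fold change of 0.46 and adjusted p-values of 0.0681 by edgeR and 0.00592 by DESeq2. Without FlncgKO library 3 the edgeR adjusted p was 0.0219 for Dnaja1 and 0.00290 for Dnajc21. That setting called 989 genes higher and 283 lower over the whole table, in place of 170 and 40.

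Of the 15 HSP90 co-chaperones, 14 had a negative log2 fold change and 1 a positive one, with a median of -0.15, and in 8 of them all FlncgKO libraries lay below all control libraries, beside 14.1% of all genes. No single co-chaperone passed the edgeR threshold, and 6 had an unadjusted p under 0.05 on the lower side, beside 8.84% of all genes. Beside 2.38% of all genes, DESeq2 called 1 co-chaperone lower. That gene was Ahsa1, the activator of the HSP90 ATPase, with 140.0, 105 and 135 CPM in FlncgKO libraries, against 161, 157 and 157 CPM in control libraries, a log2 fold change of -0.32 and adjusted p-values of 0.136 by edgeR and 0.0384 by DESeq2. Cdc37l1, a relative of the kinase co-chaperone Cdc37, had 63.9, 61.9 and 66.4 CPM in FlncgKO libraries, against 74.2, 72.6 and 69.6 CPM in control libraries, a log2 fold change of -0.17 with an edgeR adjusted p of 0.128. The 15 genes did not move alike in the 3 FlncgKO libraries: their median log2 distance from the control mean was -0.06 in library 1, -0.24 in library 2 and -0.13 in library 3. FlncgKO library 2 was likewise the lowest in Hspa8, Hsph1 and Hspd1.

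**Figure D3:**
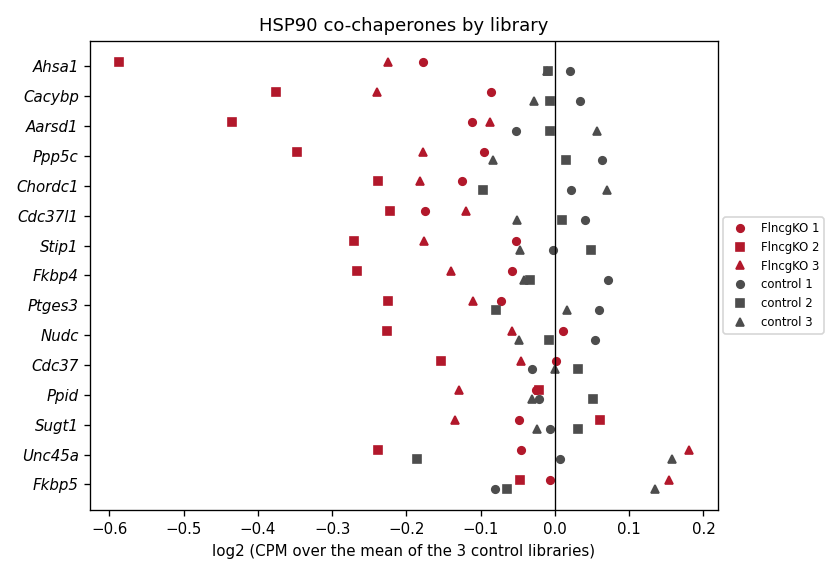
The 15 HSP90 co-chaperones by library, on the x axis as log2 of CPM over the mean of the 3 control libraries, with FlncgKO libraries in red above control libraries in grey and the replicate number as the symbol. FlncgKO library 2 lies farthest left, with 14 of 15 genes below the control mean, and libraries 1 and 3 each have 13 of 15 below it, while control libraries 1, 2 and 3 have 6, 9 and 10 of 15 below it.

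Among 7 small heat shock proteins none passed the edgeR threshold. Hspb2, a muscle member, had 78.2, 67.8 and 71.0 CPM in FlncgKO libraries, against 87.1, 82.7 and 80.2 CPM in control libraries, a log2 fold change of -0.20 with an adjusted p of 0.147. Hspb3, its partner, had a log2 fold change of -0.44 with overlapping groups and an adjusted p of 0.224. None of the 14 genes of TRiC and prefoldin, which fold actin and tubulin, passed, and all their log2 fold changes lay between -0.13 and 0.09. The 2 with the smallest p were Cct3 at -0.13 and Pfdn2 at -0.11, with adjusted p-values of 0.193 and 0.245.

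Of 16 other mitochondrial chaperones and proteases 1 passed the edgeR threshold on the higher side, beside 1.06% of all genes called higher. That gene, Lonp1, encodes the ATP-dependent protease of the mitochondrial matrix. It had 186, 223 and 178 CPM in FlncgKO libraries, against 121, 125 and 141 CPM in control libraries. Its log2 fold change was 0.60 ± 0.10 (SE), with an edgeR adjusted p of 0.0411. The edgeR adjusted p of Lonp1 was 0.216, 0.210, 0.0590, 0.0860 and 0.0716 without control library 1, 2, 3 and FlncgKO library 1, 2, 0.0545 with transcript length offsets and 0.452 with the Y-linked level as a covariate. Hspd1 and Hspe1 in the same compartment were lower without overlap, and Hspa9, the mitochondrial HSP70 counted in both its lists, overlapped at 555, 599 and 562 CPM in FlncgKO libraries and 540.5, 597 and 547 CPM in control libraries. Grpel2, an exchange factor of Hspa9, had a log2 fold change of -0.20 with an adjusted p of 0.195.

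The 9 myosin genes and myosin partners read beside Unc45b had 0 edgeR calls. DESeq2 called 1 higher and 2 lower, against 6.42% and 2.38% of all genes. Smyd1 was 1 of the lower calls, at a log2 fold change of -0.20 with a DESeq2 adjusted p of 0.0497. Myh6, the alpha myosin heavy chain, had 7708, 6243 and 5510.5 CPM in FlncgKO libraries, against 8593, 9165 and 8509 CPM in control libraries, a log2 fold change of -0.43 with adjusted p-values of 0.0999 by edgeR and 0.00236 by DESeq2. Myh7, the beta chain, had a log2 fold change of 0.35 with adjusted p-values of 0.122 by edgeR and 0.0137 by DESeq2, and all 3 FlncgKO libraries lay above all 3 control libraries. Unc45b and Myh6 therefore stood lower by the same log2 fold change, to 2 decimals, while Myh7 stood higher.

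**Figure D4:**
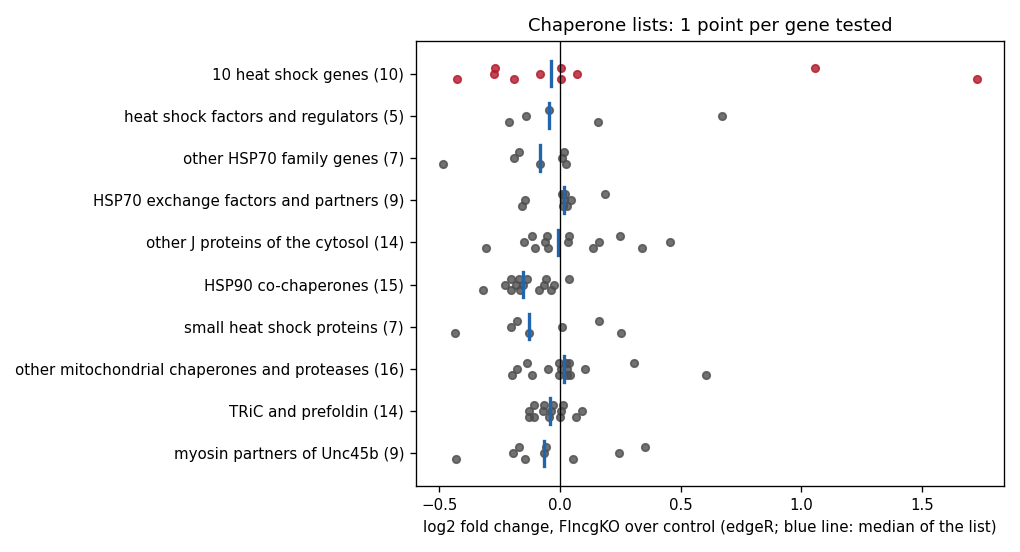
Each point is 1 gene tested in its list, on the x axis as log2 fold change of FlncgKO over control. The 10 heat shock genes are in red in the top row. The other lists, with heat shock factors and myosin partners but without the immediate early genes, are in grey. The number tested is in brackets and the list's median is a blue line. Hspa9 appears in both of its lists. The HSP90 co-chaperones lie left of 0 in 14 of 15 cases, and Hspa1a and Hspa1b are the points farthest right.

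The immediate early genes, whose transcription answers a stimulus without new protein synthesis, were read beside the inducible HSP70 genes. Of 11 tested, 10 had a positive log2 fold change with a median of 1.18, and 8 had all FlncgKO libraries above all control libraries (beside 15.7% of all genes). By edgeR 0 passed the threshold, and 8 were called higher by DESeq2 (beside 6.42% of all genes). Atf3 had 19.4, 26.1 and 13.1 CPM in FlncgKO libraries, against 9.33, 9.65 and 8.94 CPM in control libraries, a log2 fold change of 1.07 with an edgeR adjusted p of 0.0780. Dusp1 had a log2 fold change of 0.39 with an adjusted p of 0.0711. Without FlncgKO library 3, a setting with more edgeR calls over all genes, the edgeR adjusted p was 0.00204 for Atf3 and 0.0427 for Dusp1. Their part in the level of Hspa1a and Hspa1b was not tested. Summed, the list had 335, 285 and 228 CPM in FlncgKO libraries 1, 2 and 3, an order opposite to that of the summed Hspa1a and Hspa1b. In control libraries 1, 2 and 3 it had 202, 190.2 and 208 CPM, the same order as that sum.

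Over the 6 libraries, the 5 genes outside the members whose log2 CPM followed the sum of Hspa1a and Hspa1b most closely, of 9797 with a mean of at least 10 CPM, were Mospd2, Adm, Sirt2, Acot9 and Rragc, with Pearson r of 0.998, 0.993, 0.989, 0.988 and 0.987. With 6 libraries in 2 groups and so many genes searched, these values only describe the likeness. Adm, which encodes adrenomedullin, had 32.9, 48.4 and 52.8 CPM in FlncgKO libraries, against 20.3, 17.6 and 40.2 CPM in control libraries, and shared with the HSP70 pair the high value of control library 3. None of the 5 passed the edgeR threshold between the groups, their adjusted p-values running from 0.194 for Rragc to 0.550 for Mospd2.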

How the data were processed

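Per the study's methods and the submitters' processing notes, the authors quantified poly(A) RNA-seq reads with Salmon against GENCODE mouse transcripts (GRCm38.p6, mm10) and compared groups with DESeq2 1.22.2. The Salmon version is not given in the sources used here. The deposited file of each library holds estimated counts and TPM for 140658 transcripts, with effective lengths. Here the deposited estimated counts were summed per gene with GENCODE M21, 1 release before the one the authors used, matched by transcript ID. Of the transcripts, 521 (0.370%) had no gene and were left out. They held 0.108% to 0.131% of counts. Sums were rounded to whole numbers.

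Genes passing filterByExpr (minimum count 10) were tested with the edgeR 4.0.16 quasi-likelihood test (TMM, robust fit, R 4.3.3, Benjamini-Hochberg over all genes). DESeq2 1.42.0, RLE and total-count scaling, no filter, at least 10 counts in every library, transcript length offsets, the replicate number as a block, a Y-linked covariate and leaving out each library were alternatives. DESeq2 without each library was added after seeing the data. Both tools were tested on simulated counts with 200 changed genes. Named pathway genes are those of each list that passed, up to 5, and the 2 next by p. Values of Hsf1, Hspa1l, Hspa9 and Smyd1 are given besides, outside this rule. The members and lists were chosen with earlier results of these data known. Promoter stretches are from RefSeq, shared 31-base stretches were counted in the GENCODE M21 transcripts with Python 3.11.15, and coding sequences were aligned with Biopython 1.88. With 3 libraries a group, an exact permutation test cannot go below 0.1.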

Additional observations from a re-analysis of the deposited data

How the results depend on the processing

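The main test called 170 genes higher and 40 lower. The counts were 392 and 162 with no filter on low counts, 61 and 13 with transcript length offsets, 512 and 120 with the replicate block, 990 and 367 with DESeq2, and 0 and 0 with the Y-linked level as a covariate, and 62 genes were lower with at least 10 counts in every library. Leaving out each library gave 1 to 989 genes higher and 0 to 283 lower. The largest of these counts, 989 and 283, came without FlncgKO library 3. Of the members, 1 was called higher and 2 lower with DESeq2, and 1 lower with the replicate block, Unc45b, at -0.44 with an edgeR adjusted p of 0.0260. Leaving out a library gave 0 members higher and 0 to 1 lower with edgeR, and 0 to 2 higher and 0 to 4 lower with DESeq2. The replicate numbers are not taken to pair the libraries, and nothing states which libraries share a litter. Same-numbered libraries correlated at 0.0535, 0.628 and 0.631 in their deviations from the group means. Control library 1 was most like FlncgKO library 2 (0.173). FlncgKO library 3 and control library 2 correlated at -0.591, and FlncgKO library 2 and control library 3 at -0.655. The block changed no other member's call. With it, Hspa1a stood at 1.65 ± 0.39 (SE) and Hspa1b at 1.20 ± 0.30, with edgeR adjusted p-values of 0.0884 and 0.0984. Of the named pathway genes, Dnajc21, Myh7 and Atf3 had edgeR adjusted p-values of 0.0488, 0.0351 and 0.0355 with the block. The sum of Hspa1a and Hspa1b ranged from 0.91 to 2.07 on the log2 scale over libraries left out, and was 0.04 with the Y-linked covariate. Hspa1b turned to -0.053 with that covariate, which is partly confounded with the group. Hsp90aa1 and Hsp90ab1, at 0.01 each, turned to -0.00093 and -0.0013 with RLE size factors, -0.0227 and -0.0229 with total counts only, -0.0063 and -0.0068 with no filter, and -0.00095 and -0.0013 with DESeq2. Without a library they ranged from -0.0331 to 0.0497 and from -0.0199 to 0.0289 with edgeR, and from -0.0351 to 0.0451 and from -0.0221 to 0.0218 with DESeq2. The share of Hspa8 TPM from its main transcript differed by 0.0556 percentage points in estimated counts in place of -0.843 in TPM. Without a library, the differences in main-transcript share ranged from -0.317 to 1.21 for Dnajb1, -3.55 to 1.97 for Hspa4l, -3.26 to 0.548 for Hspa8, -4.74 to 3.19 for Hsph1 and -0.561 to 1.02 for Unc45b. The cause of these moves was not tested. Hspa1a and Hspa1b rest on 30 to 397 estimated counts per library.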
